A study of Mus musculus with 6 samples.

Results

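The genes described here are 49 lysosomal genes, chosen by name with earlier results of these data known. They comprise 23 soluble hydrolases, 3 soluble proteins that are not enzymes, 7 lysosomal membrane proteins and 16 subunits of the V-ATPase. The V-ATPase is the proton pump that acidifies the lysosome. All 49 matched an Ensembl gene among the 36558 genes of the authors' deposited table, all 49 had an adjusted p there, and 48 of them had splicing events. Whole hearts labelled cKO (Srsf3Fl/Fl-βMHC-Cre), in which the gene of the splicing factor SRSF3 is deleted in cardiomyocytes per the labels, were compared with hearts of control mice (Srsf3Fl/Fl), which carry the same floxed Srsf3 alleles without the Cre transgene. Cre was driven by the Myh7 promoter in cardiomyocytes from development in utero, and no treatment was given. Polyadenylated RNA was sequenced from 3 heart samples labelled cKO and 3 labelled control, and the labels do not say whether the samples of a group are separate animals. The age of the animals is not given in the sources used here. Total Srsf3 mRNA was not lower in the hearts labelled cKO, at a log2 fold change of 0.02 ± 0.07 (SE) per the authors' deposited table, with an adjusted p of 0.935 and a 95% interval from -0.13 to 0.17. A total over the whole gene and all cell types of the heart does not show the deleted exons by themselves, so the deletion rests on the labels here, for the group and not sample by sample.

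Lysosomes break down proteins, glycans, lipids and glycogen with hydrolases that work at acid pH. The V-ATPase provides that acid: its V1 sector hydrolyses ATP on the cytosolic side and its membrane-bound V0 sector carries the protons across. Many of these genes carry an E-box known as the CLEAR element near their start, which the transcription factor TFEB and its relatives bind, so that enzymes, membrane proteins and pump subunits can be made together. Cardiomyocytes need lysosomes to clear glycogen and damaged mitochondria, and loss of Lamp2 or Gaa causes storage disease of heart muscle. Macrophages are rich in lysosomes, and cathepsin S and cathepsin C are typical of such cells.

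The hexamer CACGTG is only the core of that element. Bases around it are printed for the 4 called members that held it upstream of the RefSeq transcription start. The copies shown for Ctsd and Ctsa lie within the longer form TCACGTGA, and those shown for Lamp1 and Naglu do not. The sequences are from RefSeq on GRCm38.p6, 5′ to 3′ on the strand of the gene, with CACGTG in capitals. For Lamp1 the last 110 bases before the start are given (chr8:13159051-13159160, + strand), which lie upstream of the Lamp1 gene in GENCODE M21. For Ctsd (chr7:142387908-142387937, - strand), Ctsa (chr2:164833749-164833778, + strand) and Naglu (chr11:101070009-101070038, + strand) 30 bases are given. There a GENCODE M21 transcript starts further upstream, and 30, 30 and 27 of these bases lie in its 5′ UTR.
Lamp1: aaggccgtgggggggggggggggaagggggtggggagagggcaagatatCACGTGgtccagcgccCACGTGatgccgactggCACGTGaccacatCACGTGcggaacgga
Ctsd: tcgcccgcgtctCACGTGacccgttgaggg
Ctsa: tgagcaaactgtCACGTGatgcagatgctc
Naglu: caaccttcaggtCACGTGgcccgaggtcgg

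The stretch of Lamp1 holds 4 copies of the hexamer, which begin at positions -61, -45, -28 and -15 relative to the start, while the copies shown for Ctsd, Ctsa and Naglu begin at -98, -12 and -73. Of the 49 members, 40 had a promoter in the RefSeq set, a window of 250 bases before to 50 bases after the start. CACGTG, which is its own reverse complement, occurred in 16 of these 40 (40.0%) and in 2187 of all 27025 genes with a promoter (8.09%). The longer palindrome TCACGTGA, which contains it, occurred in 8 of 40 members (20.0%), namely Ctsa, Ctsd, Gla, Cln3, Mcoln1, Atp6v0d1, Atp6v0e and Atp6v1a, and in 1.12% of all genes. Among members with a promoter, CACGTG was present in 4 of the 6 that were called higher in cKO hearts and in 12 of the 34 that were not called. These are matches of letters and show no binding.

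In cKO hearts 9 of the 49 lysosomal genes had higher mRNA than in control hearts, and 0 had lower mRNA. The authors' gene lists from other pipelines held fewer of the 9: the sleuth list of 517 genes held 2, Lamp1 and Ctsd, and the featureCounts list of 171 genes held 0. The authors' DESeq2 test called 1130 genes in either direction, and the share of them in these shorter lists was not counted. A gene was called at an adjusted p under 0.05 in the authors' DESeq2 Wald test over 15929 tested genes, of which 3.78% were called higher in cKO, 3.31% lower and 7.09% in either direction. For the members the share called higher was 18.4%. For the 11646 tested genes with a mean count within the range of the members it was 4.17%. The members were chosen with earlier results of these data known, so these shares are a description and not a test. The 9 were the proteases Ctsa, Ctsb, Ctsd and Ctss, the glycosidase Naglu, the membrane glycoprotein Lamp1 and the pump subunits Atp6v0a1, Atp6v0a2 and Atp6v1h. Their increases were modest, from 1.18-fold (Ctsb) to 1.60-fold (Ctss). The median log2 fold change was 0.09 over the 49 members and -0.004 over all tested genes, and 39 of the 49 values were positive, against 7842 of 15929 among all genes. The tables hold the authors' comparison and no values per sample, so values are given per group or as fold changes with standard errors, and the overlap of single samples cannot be stated. In whole hearts fewer cells of a type and less RNA per cell cannot be told apart, and in the same hearts the median log2 fold change was 0.53 over 15 macrophage markers and -0.36 over 10 cardiomyocyte markers.

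**Figure D1:**
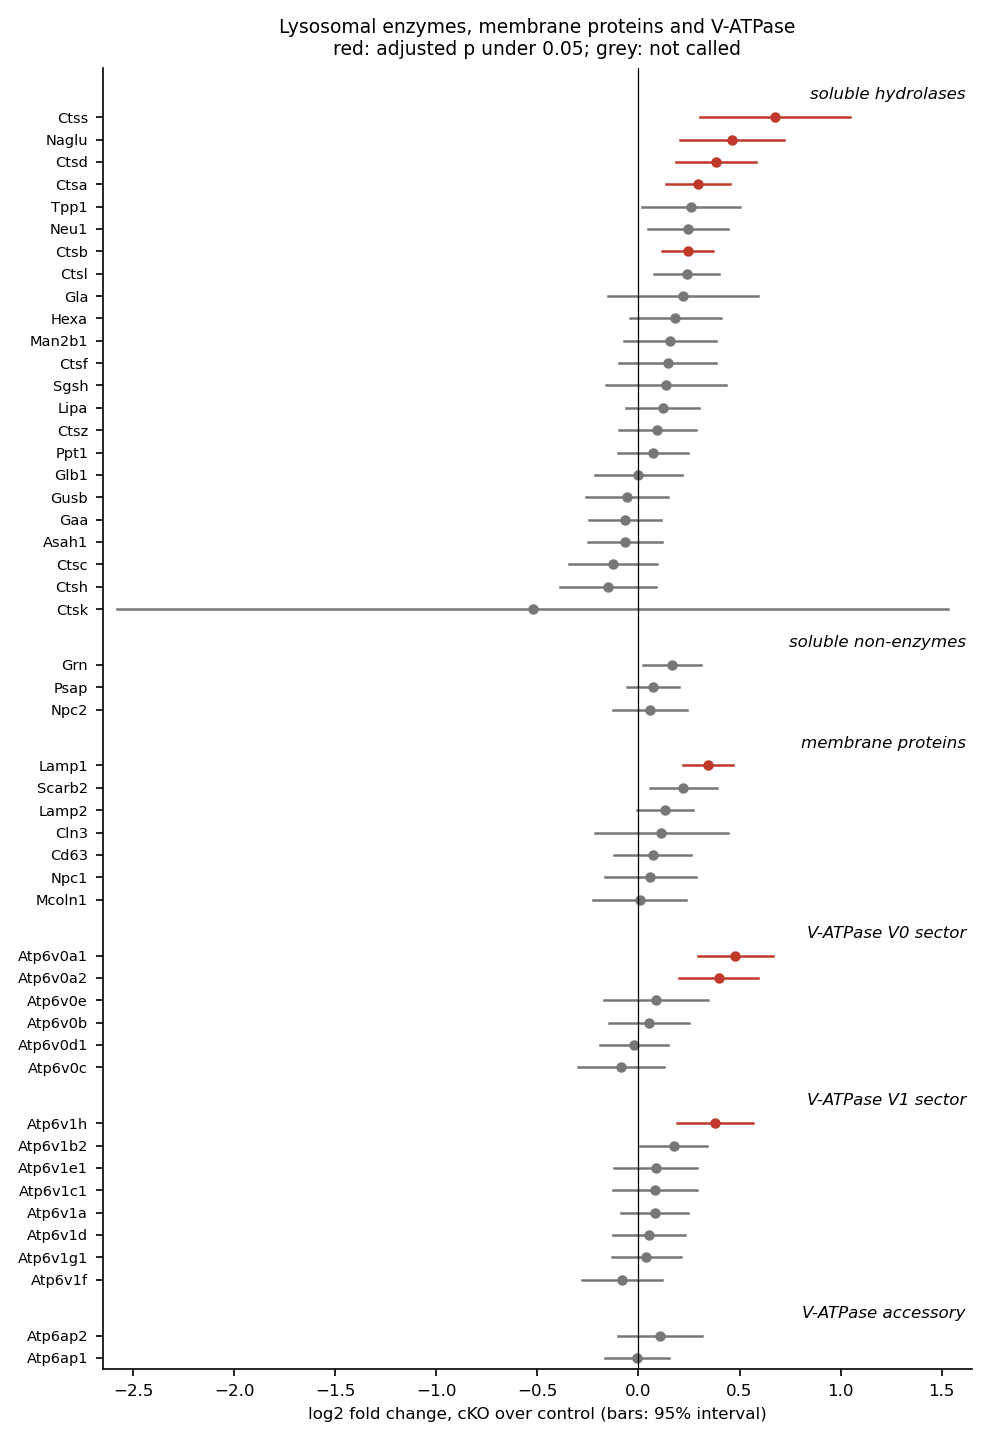
Log2 fold change of each of the 49 members, cKO over control, with its 95% interval from the authors' standard error, by role and in falling order. The 9 called members (red) lie between 0.24 and 0.68, and Ctsk has an interval from -2.58 to 1.53.

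The direction of the fold change is not stated with the values and was read from the splicing data. The inclusion level of an exon that is hardly ever skipped comes nearer to 100% as its reads increase, so the remaining distance, where under 3 points in both groups, ranks the read depth of a gene in cKO against control. Among 629 called genes with at least 3 such exons, depth relative to the median gene and fold change had equal signs in 596 (94.8%), and in 9 of 9 called members. With introns near 0% it was 412 of 547 called genes (75.3%) and 5 of 8 called members. Positive values are higher in cKO throughout.

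Among the soluble hydrolases, 5 of 23 rose, 0 fell, and the median log2 fold change was 0.15. Of the 10 cathepsins, the lysosomal proteases, 4 rose. Ctsd (ENSMUSG00000007891, chromosome 7), the aspartic protease cathepsin D, rose by 0.38 ± 0.10 on the log2 scale, which is 1.30-fold, per the authors' deposited table (± SE, adjusted p = 0.00503). With 6433 mean normalized counts per kb of exon it was the hydrolase with the highest level, computed from the authors' deposited table and the GENCODE exon length. Ctsb (ENSMUSG00000021939, chromosome 14), a cysteine protease, stood at 1804 per kb and rose by 0.24 ± 0.06 per the authors' deposited table (± SE, adjusted p = 0.00600). Ctsa (ENSMUSG00000017760, chromosome 2) is the protective protein that holds β-galactosidase and neuraminidase together in the lysosome. It rose by 0.29 ± 0.08 per the authors' deposited table (± SE, adjusted p = 0.00895).

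Its partners in that complex, Glb1 (β-galactosidase) and Neu1 (neuraminidase), were not called, at log2 fold changes of 0.0002 ± 0.11 (SE) and 0.24 ± 0.10 per the authors' deposited table (± SE, adjusted p = 0.135). Ctsl, cathepsin L, lay just outside the threshold, at 0.24 ± 0.08 per the authors' deposited table (± SE, adjusted p = 0.0502), while Naglu was the called member nearest to it. Naglu (ENSMUSG00000001751, chromosome 11) removes N-acetylglucosamine from heparan sulfate. It rose by 0.46 ± 0.13, 1.38-fold, per the authors' deposited table (± SE, adjusted p = 0.0111). Sgsh, the sulfamidase of the same pathway, had a log2 fold change of 0.14 ± 0.15 per the authors' deposited table (± SE, adjusted p = 0.709) and was not called.

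The other hydrolases not called included enzymes of the best known storage diseases. Gaa, which breaks down glycogen and is lacking in Pompe disease, had a log2 fold change of -0.07 with a 95% interval from -0.24 to 0.11, computed from the authors' deposited table. The interval for Gla, the enzyme lacking in Fabry disease, was wider, from -0.15 to 0.59, at a mean of 164 normalized counts per the authors' deposited table, the lowest mean of the 49 members. Hexa (β-hexosaminidase), Man2b1 (α-mannosidase), Lipa (acid lipase), Ppt1 (palmitoyl thioesterase), Asah1 (acid ceramidase) and Gusb (β-glucuronidase) had log2 fold changes between -0.07 and 0.18 per the authors' deposited table. Tpp1, the tripeptidyl peptidase lacking in a form of Batten disease, stood at 0.26 ± 0.12 per the authors' deposited table (± SE, adjusted p = 0.218).

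Ctsk, cathepsin K, the collagen-degrading protease of osteoclasts and fibroblasts, had the widest interval of the 49. The authors' deposited table lists it at -0.52 ± 1.05 (SE) on the log2 scale and a mean normalized count of 401. Among 1399 tested genes with a mean of 300 to 500, the median standard error was 0.15, and 4 genes, Ctsk included, had one at least as large. The standard errors of the other 48 members were between 0.06 and 0.19 per the authors' deposited table.

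The 3 soluble proteins without enzyme activity were not called. Psap, the precursor of the saposins that help enzymes reach lipids, had a mean of 7520 normalized counts per kb, above Ctsd, the next of the 49 members. Its log2 fold change was 0.07 with a 95% interval from -0.06 to 0.20, computed from the authors' deposited table. Npc2, the cholesterol-binding partner of NPC1, stood at 0.06 ± 0.09 (SE), and Grn, progranulin, at 0.17 ± 0.07 per the authors' deposited table (± SE, adjusted p = 0.166).

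All 7 membrane proteins had positive fold changes and 1 was called. Lamp1 (ENSMUSG00000031447, chromosome 8), a heavily glycosylated protein that lines the lysosomal membrane, had the smallest adjusted p of the 49 members. It rose by 0.34 ± 0.06 on the log2 scale, 1.27-fold, per the authors' deposited table (± SE, adjusted p = 8.92e-06). Its relative Lamp2, which is required for autophagosomes to fuse with lysosomes in the heart, stood at 0.13 ± 0.07 per the authors' deposited table (± SE, adjusted p = 0.305). Scarb2, also known as LIMP-2, an abundant protein of the lysosomal membrane, stood at 0.22 ± 0.08 per the authors' deposited table (± SE, adjusted p = 0.0903). Npc1 (cholesterol export), Cd63 (a tetraspanin), Cln3 (the Batten disease protein) and Mcoln1 (the calcium channel TRPML1) lay between 0.006 and 0.11 per the authors' deposited table.

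**Figure D2:**
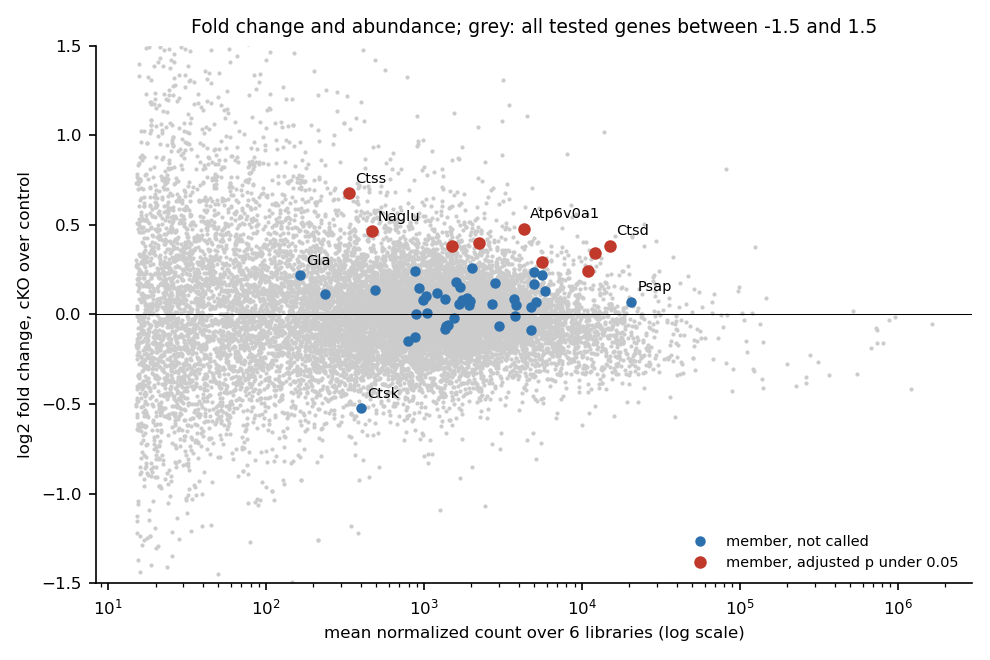
Mean normalized count over the 6 libraries (log scale) against log2 fold change, cKO over control, for all tested genes with a log2 fold change between -1.5 and 1.5 (grey) and the 49 members (blue, or red where called). The called members span means from 334 (Ctss) to 15123 (Ctsd) normalized counts.

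Of the 16 V-ATPase subunits 3 rose, 0 fell, and the median log2 fold change was 0.08. The a subunit of the V0 sector, through which protons pass and which directs the pump to its membrane, was called in both isoforms on the list. Atp6v0a1 (ENSMUSG00000019302, chromosome 11) rose by 0.48 ± 0.09, 1.39-fold, per the authors' deposited table (± SE, adjusted p = 4.49e-05). Atp6v0a2 (ENSMUSG00000038023, chromosome 5), the isoform of Golgi and endosomes, rose by 0.40 ± 0.10, 1.32-fold, per the authors' deposited table (± SE, adjusted p = 0.00275). Per kb of exon, the mean normalized count was 658 for Atp6v0a1, 332 for Atp6v0a2, 185 for Tcirg1, the a3 isoform of osteoclasts and macrophages, and 2.90 for Atp6v0a4, the isoform of kidney. Tcirg1, which like Atp6v0a4 is outside the 49 and was named after its values were seen, was not called, at a log2 fold change of -0.10 ± 0.12 per the authors' deposited table (± SE, adjusted p = 0.745).

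The remaining V0 subunits were not called. They are the proton-carrying ring proteins Atp6v0c and Atp6v0b, the d1 subunit and the e subunit, and their log2 fold changes lay between -0.09 and 0.09 per the authors' deposited table. Their 95% intervals reached at most from -0.30 to 0.34. Reads of Atp6v0c may be shared with a pseudogene copy, Atp6v0c-ps2, whose mean was 598 normalized counts, against 4777 for Atp6v0c, per the authors' deposited table.

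In the V1 sector Atp6v1h (ENSMUSG00000033793, chromosome 1), the regulatory H subunit needed for ATP hydrolysis to drive transport, rose by 0.38 ± 0.10, 1.30-fold, per the authors' deposited table (± SE, adjusted p = 0.00332). The other 7 V1 subunits were not called. The catalytic subunit Atp6v1a stood at 0.08 ± 0.08 (SE) and its partner in the catalytic ring, Atp6v1b2, at 0.17 ± 0.09 per the authors' deposited table (± SE, adjusted p = 0.233). The stalk subunits Atp6v1c1, Atp6v1d, Atp6v1e1, Atp6v1f and Atp6v1g1 lay between -0.08 and 0.09 per the authors' deposited table. The accessory proteins Atp6ap1 and Atp6ap2 (the prorenin receptor), which help assemble the pump, were at -0.007 and 0.11 per the authors' deposited table. The 95% intervals of the 13 pump subunits not called reached up to 0.34 on the log2 scale, and those of the called Atp6v0a1, Atp6v0a2 and Atp6v1h began at 0.29, 0.20 and 0.19, so the intervals of called subunits overlapped those of some subunits not called. Differences between subunits were not tested.

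The members were also divided by how typical they are of macrophages. Of 8 members taken as macrophage-rich (Ctsb, Ctsc, Ctsh, Ctss, Ctsz, Grn, Lipa and Npc2), 2 rose, with a median log2 fold change of 0.11. Of the other 41 members 7 rose, with a median of 0.09. Ctss (ENSMUSG00000038642, chromosome 3), cathepsin S of antigen-presenting cells, had the largest fold change of the 49, 0.68 ± 0.19 on the log2 scale, per the authors' deposited table (± SE, adjusted p = 0.0101). Ctsc and Ctsh, which with Ctss made up a stricter list of macrophage proteases, were not called and had negative values, at -0.13 ± 0.11 (SE) and -0.15 ± 0.12 (SE) per the authors' deposited table. The median of the stricter 3 was -0.13.

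Of 15 macrophage markers 5 rose, 0 fell, all 15 values were positive, and the median was 0.53. Their means were between 45.9 and 1057 normalized counts, and 0 of them were at 0. Lyz2, lysozyme, stood at 1.11 ± 0.17 (SE, adjusted p = 2.65e-08), Csf1r, the receptor for the macrophage growth factor, at 0.53, Adgre1, the F4/80 antigen, at 0.75 and C1qb, a complement component, at 0.57 per the authors' deposited table. Of 10 cardiomyocyte markers 6 fell, with a median of -0.36 and means of at least 25584 normalized counts. The 4 with the smallest adjusted p, the sarcomere genes Myl3, Myl2, Actc1 and Tnni3, lay between -0.43 and -0.38 per the authors' deposited table. Of 7 epicardial markers 1 rose (Lrrn4), with a median of 0.64. Of 10 fibroblast markers 1 fell (Thy1, median 0.04), of 10 endothelial markers 1 rose (Vwf, median -0.06) and of 8 mural markers 1 rose (Tagln, median -0.10). The part of these markers in the lysosomal values was not tested.

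**Figure D3:**
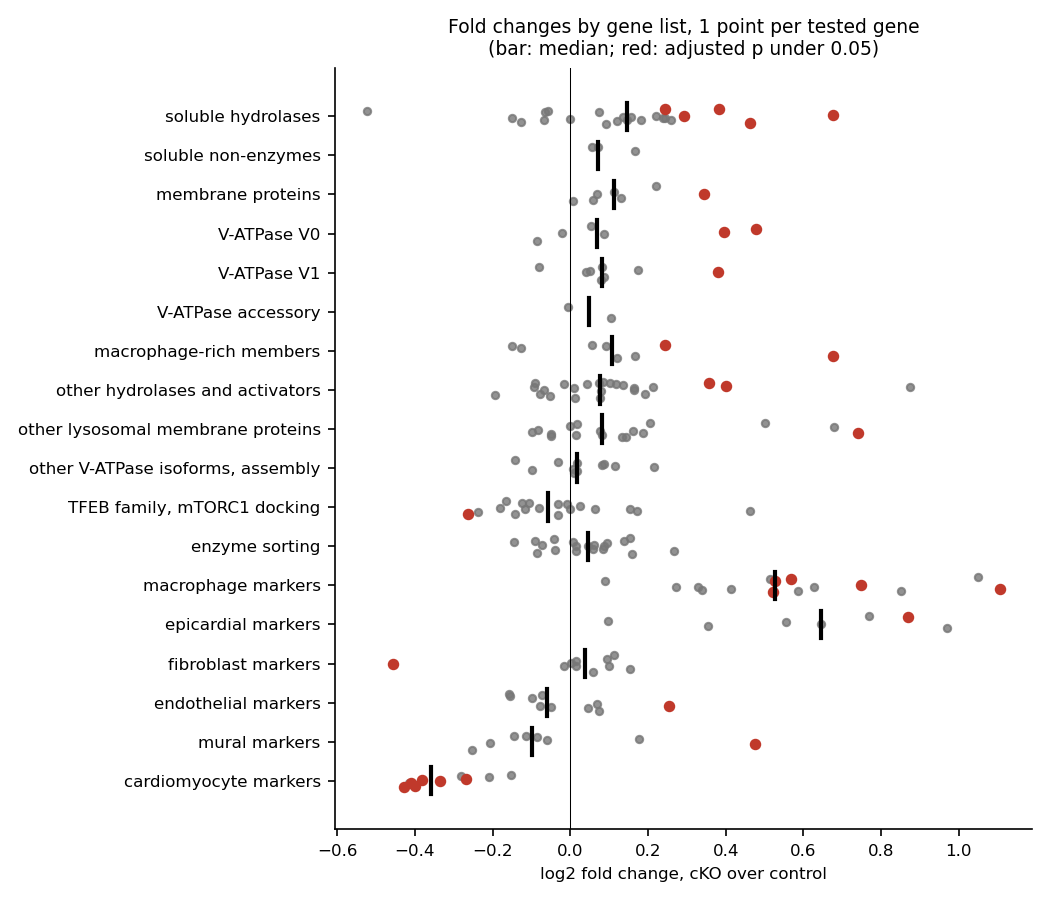
Log2 fold change, cKO over control, of every tested gene of the member groups, of other lysosomal lists and of cell type markers, with the median as a bar and called genes in red. The medians of the member groups lie between 0.05 and 0.15, that of macrophage markers at 0.53 and that of cardiomyocyte markers at -0.36.

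Further lysosomal genes were taken from lists of the same pathways. Of 24 other hydrolases and activators 2 rose and 0 fell, with a median of 0.08. Lgmn, the asparagine-specific protease legumain, stood at 0.36 ± 0.07 per the authors' deposited table (± SE, adjusted p = 0.000105). Of 20 other membrane proteins and transporters, 17 had an adjusted p and 1 rose, Cd68, the macrophage relative of the LAMP proteins, at 0.74 ± 0.19 per the authors' deposited table (± SE, adjusted p = 0.00485). Of 17 other pump isoforms and assembly factors, 11 had an adjusted p. Of these 11, 0 were called in the authors' DESeq2 test and 0 had an unadjusted p under 0.05, and the authors' sleuth list held 0 of the 17. Among the 6 without an adjusted p, Atp6v0d2 had an unadjusted p of 0.000825 and a mean normalized count of 13.5 per the authors' deposited table, and was named after its values were seen. The 2 with the highest means were Rnasek, a pump-associated protein, at -0.14 ± 0.12 (SE) and Dmxl1 at 0.006 ± 0.09 (SE) per the authors' deposited table.

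Genes that control or sort lysosomal proteins were examined in the same way. Of 18 genes of the TFEB family and of mTORC1 docking at the lysosome, 0 rose and 1 fell, Zkscan3, a zinc finger protein described as a repressor of lysosomal genes, at -0.26 ± 0.08 per the authors' deposited table (± SE, adjusted p = 0.0273). Tfeb itself stood at -0.24 ± 0.12 per the authors' deposited table (± SE, adjusted p = 0.238), and was named after its values were seen. The authors' sleuth list held 1 gene of these 18, Rragd, a GTPase that recruits mTORC1. Of 19 sorting genes 0 were called in the authors' DESeq2 test, with 1 at an unadjusted p under 0.05 and 0 in the sleuth list. The mannose 6-phosphate receptor Igf2r, the most abundant of them by mean count, was at -0.04 ± 0.09 (SE) and the retromer subunit Vps35 at 0.02 ± 0.07 (SE) per the authors' deposited table.

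Splicing was called in 1 event of the lysosomal genes. Inclusion (PSI) gives, in percent, how often transcripts hold an exon, keep an intron or use a splice site, with 1 value per group. An event was called where the minimum change, the size that the authors' vast-tools analysis gave as exceeded with a probability of 0.95, was at least 10 points. The threshold was met by 1 of 1262 events in 48 members, against 610 of 265079 events (0.230%) in all genes. At a minimum change of 1 point it was 26 member events, against 5885 of all events (2.22%). The median absolute difference was 0.268 points over member events and 0.449 points over all events. Read numbers behind the events were not used here, and events were not compared at like abundance. The lowest mean normalized count was 164 among the members and 15.1 among all tested genes. Whether member events differed less than other events of like depth was not tested.

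The called event lies in Atp6v1g1, the G subunit of the V1 stalk. It is 1 of 7 alternative 5′ splice sites in a stretch that begins 1228 and ends 731 bases upstream of a 100-base exon (mm9, chromosome 4). That exon, included at 6.08% in cKO and 3.54% in control hearts, serves as a landmark only. The site at position 63205877 was used at 56.9% in cKO hearts and 21.9% in control hearts, with a minimum change of 11 points. The site at 63206160 was used at 2.71% in cKO and 21.3% in control, and that at 63206320 at 22.2% in cKO and 40.4% in control, with minimum changes of 4 and 0 points. The levels of the 7 sites, estimated one by one, add up to 113.9% in cKO and 116.4% in control. The mRNA of the gene was not called, at 0.04 ± 0.09 (SE) per the authors' deposited table.

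Cassette exons of Psap and Atp6v1h were picked as examples to show by sequence, and not by a screen of all members. They were included in part of the transcripts in both groups and lie within coding sequence. They were placed on GENCODE M21 transcripts (GRCm38, + strand) by the lengths and spacing of the exons, which matched for 11 of 11 exon events of Psap and 12 of 13 of Atp6v1h. The exon is in capitals with 15 bases of its neighbours in lower case. The exons lie at chr10:60297537-60297545 (Psap, exon 8 of Psap-205), chr1:5093363-5093452 (Atp6v1h, exon 4 of Atp6v1h-201) and chr1:5101070-5101123 (exon 7 of the same transcript).
Psap exon 8: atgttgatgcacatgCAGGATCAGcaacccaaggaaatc
Atp6v1h exon 4: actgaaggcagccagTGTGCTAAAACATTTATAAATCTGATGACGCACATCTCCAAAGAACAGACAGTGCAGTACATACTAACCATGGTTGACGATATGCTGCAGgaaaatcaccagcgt
Atp6v1h exon 7: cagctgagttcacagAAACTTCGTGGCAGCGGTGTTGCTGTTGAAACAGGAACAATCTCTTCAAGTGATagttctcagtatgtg

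The 9-base exon of Psap, which adds a short stretch within the saposin B region, was included at 61.3% in cKO hearts and 68.4% in control hearts, a minimum change of 4 points. The 90-base exon of Atp6v1h was included at 72.4% in cKO and 59.6% in control, a minimum change of 6 points, in the same gene whose total mRNA was called higher. Its 54-base exon, which distinguishes long from short forms of the H subunit, was included at 47.9% in cKO and 53.1% in control, with a minimum change of 0 points. No exon of these 3 passed the threshold of 10 points.

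Mcoln1 gave the longest run of exons with a shift. Its 9 exon events from the second to the tenth had inclusion levels of 95.01% to 98.2% in cKO hearts and 80.7% to 93.3% in control hearts, all higher in cKO. The lowest in control, a 150-base exon at positions 3510540 to 3510689 (mm9, chromosome 8), stood at 95.3% in cKO and 80.7% in control, a minimum change of 7 points. The first, eleventh and twelfth events were above 98% in both groups. Reads that skip several exons enter the levels of all exons they span, so the 9 events are not independent, and none was called. The total mRNA of Mcoln1 was not called, with a log2 fold change of 0.006 and a 95% interval from -0.22 to 0.24, computed from the authors' deposited table.

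Of the other shifts, a 170-base exon of Glb1 was included at 94.2% in cKO and 82.8% in control, with a minimum change of 6 points. A 176-base exon of Lamp2 stood at 58.3% in cKO and 48.0% in control, with a minimum change of 4 points, while the 7 constitutive exons of the gene were above 99% in both groups. Among introns, a 1174-base intron of Neu1 was retained at 13.6% in cKO and 26.5% in control, and a 100-base intron of Mcoln1 at 16.3% in cKO and 28.3% in control, each with a minimum change of 3 points. Of the 9 members called at the mRNA level, 8 had no event with a minimum change of 5 points, the exception being Atp6v1h. Such events were rare throughout: 4 of 1262 over all members, in Atp6v1g1, Mcoln1, Atp6v1h and Glb1, and 1677 of 265079 in all genes. Their absence is therefore not particular to the called members.

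**Figure D4:**
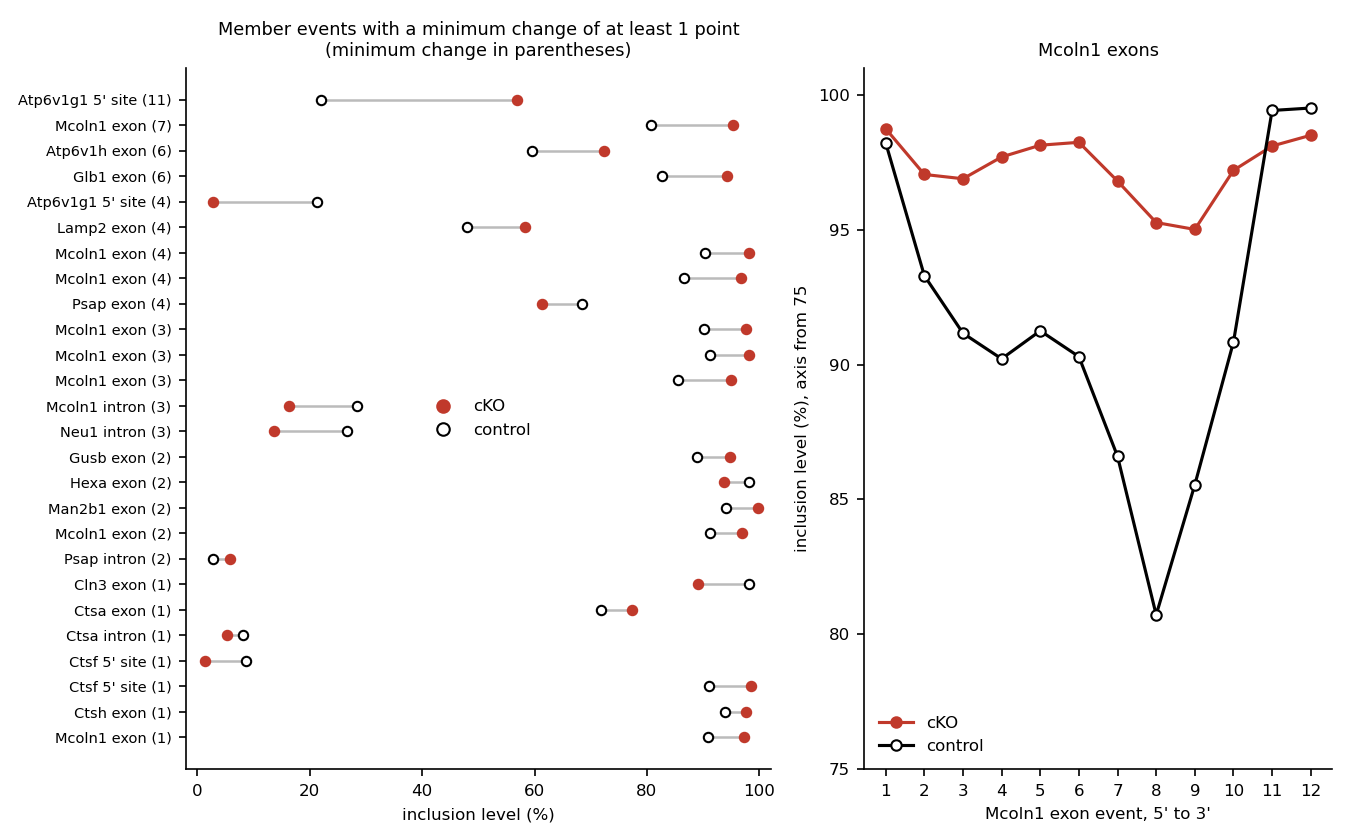
Left, inclusion level (%) in cKO (filled) and control (open) hearts for the 26 member events whose minimum change, given in parentheses, reached 1 point. Right, inclusion level of the 12 exon events of Mcoln1 from 5′ to 3′ on an axis that starts at 75%, where events 2 to 10 lie at 95.01% to 98.2% in cKO and 80.7% to 93.3% in control.

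Some members share exonic sequence with neighbouring genes. Of the 40 members not called, these are Atp6v0b, Atp6v1e1, Cln3, Ctsl, Ctsz, Glb1, Grn, Hexa, Npc1, Ppt1 and Sgsh. The share over all genes was not counted. For 6 of the 9 called members GENCODE M21 annotates a gene that overlaps an exon. For Ctsd it is the predicted gene Gm49369 on the same strand, at 0.73 (adjusted p = 0.113) and a mean of 376 normalized counts, against 15123 for Ctsd, per the authors' deposited table. For Ctsa it is Neurl2 and Pltp on the opposite strand, at -0.45 (adjusted p = 0.0216) and 0.32 (adjusted p = 0.291) per the authors' deposited table. The others were Fdft1 for Ctsb, Grtp1 for Lamp1, Rgs20 for Atp6v1h and an antisense RNA for Atp6v0a2, all on the opposite strand. Whether the authors' counting used the strand is not given in the sources used here.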

How the data were processed

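Total RNA was taken from hearts with Trizol, and sequencing libraries came from a kit that marks the strand, per the labels' protocols. Tools listed in the submitters' processing notes are kallisto 0.46.0, DESeq2 1.24.0, Trimmomatic 0.38 and FastQC 0.10.1, without roles, beside mm9, mm10 and GRCm38 as builds. The gene table deposited by the authors has DESeq2 columns, per the file headers: a mean normalized signal (count divided by size factor) of all 6 libraries, a log2 fold change and its SE, a Wald statistic (a score), and a p-value before and after Benjamini-Hochberg adjustment. The splicing table deposited by the authors gives each inclusion level as a fraction, 1 per group, with a minimum change, from vast-tools on mm9, per the file headers. These are printed as percentages and points.

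The tables hold no values per library, so the fallback fixed in the design was used: the authors' own test. Depth per sample is unknown, and intervals (95%, normal) come from the deposited standard errors. Symbols came from a reference table of gene names (35856 of 36558 IDs matched). Levels per kb are mean normalized counts over the length of all GENCODE M21 exons. Functions were tested on simulated data. Genes outside the members were named by smallest adjusted p among those called, up to 4 per list, or the 2 with the highest mean where none was called; exceptions are marked, and 1 gene that the rule names is not reported here. The members and lists were chosen with earlier results of these data known. The labels do not say that the 3 samples of a group are separate animals, so p-values measure only the spread between these samples, which may be technical. Promoters are from RefSeq on GRCm38.p6; Ctsb, Ctsh, Asah1, Npc1, Atp6v0a2, Atp6v1b2, Atp6v1c1, Atp6v1g1 and Atp6v1h had none in the set. Python 3.11.15, numpy, pandas, scipy and matplotlib were used.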

Additional observations from a re-analysis of the deposited data

How the results depend on the processing

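The count of 9 members higher and 0 lower in cKO hearts was 9 with adjustment across the 25665 genes that have a p-value, 10 within genes whose mean reaches 100, 10 with fold changes centred on the median gene, 7 at an adjusted p under 0.01 and 11 at an adjusted p under 0.1, with 0 lower in each. The authors' sleuth list of 517 genes held 2 of the 9 (Lamp1 and Ctsd) and their featureCounts list of 171 genes held 0. Of the thresholds of those lists nothing is known here. The share of all called genes in them was not counted, and the cause was not tested. Ctss and Naglu lost their call at 0.01. Ctsl, at an adjusted p of 0.0502, was called within genes whose mean reaches 100 (0.0431), after centring (0.0459) and at the threshold of 0.1, and its adjusted p ranged from 0.0431 to 0.0790. The difference in median log2 fold change between macrophage-rich and other members was 0.02, and -0.23 with the strict list of 3, which holds fewer genes. With a minimum change of 5 points, 4 member events were called, and with 15 points 0, where a lower threshold passes more events by construction. No paired analysis was possible because the tables hold no values per library, and for the same reason no library could be left out.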

Other observations

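Outside the 49 members, 9 genes of the lysosomal lists had a p-value but no adjusted one. Among them Atp6v0d2, the d2 isoform of the V0 sector that is typical of osteoclasts and some macrophages, had a log2 fold change of 3.16 ± 0.95 (SE) and a mean normalized count of 13.5 per the authors' deposited table (unadjusted p = 0.000825). With adjustment across the 25665 genes that have a p-value, its p was 0.0302. Its widely expressed counterpart Atp6v0d1 stood at -0.02 ± 0.09 (SE) and 863 mean normalized counts per kb, against 4.99 per kb for Atp6v0d2. Acp5, an acid phosphatase that is also known from osteoclasts, stood at 0.87 ± 0.44 per the authors' deposited table (± SE, adjusted p = 0.249) and was not called. Atp6v0d2 and Acp5 were named after their values were seen. The other genes described above as genes of osteoclasts had negative values and were not called. Ctsk stood at -0.52 ± 1.05 (SE) and Tcirg1 at -0.10 ± 0.12 (SE) per the authors' deposited table. A shared change of osteoclast genes was not tested.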
